A study of Mus with 8 samples.

Results

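The data compared P cells, 3T3-L1 cells with reduced Prep1, with C cells, their control, 1 day after adipogenic induction. 3T3-L1 is a mouse line of embryonic fibroblast origin whose cells are preadipocytes, cells committed to the fat lineage that turn into lipid-filled fat cells when given hormones. P cells carried a pLKO.1 lentivirus with an shRNA against Prep1 and C cells the same kind of virus with a scrambled shRNA, and both had been selected in puromycin. At day 1 both had been for 24 hours in DMEM with 10% serum (FBS), 1 μM dexamethasone, which activates the glucocorticoid receptor, 0.5 mM IBMX, which raises cAMP by blocking phosphodiesterases, and 1 μg/ml insulin. The P cells came from a single shRNA sequence, which lowers the RNA and does not delete the gene. The comparison rests on 4 of the 8 libraries of the series, replicas 1 and 2 of C cells and replicas 1 and 2 of P cells. The remaining 4 libraries are the same cells at day −2, before the hormones, and are used where the difference at day 1 is set beside the difference before induction.

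Prep1, the product of the gene Pknox1, is a homeodomain transcription factor of the TALE class that binds DNA as a dimer with Pbx proteins. In the textbook course of adipogenesis, glucocorticoid and cAMP raise C/EBPβ and C/EBPδ, these raise PPARγ and C/EBPα, and PPARγ with C/EBPα then switch on the genes of the mature fat cell. Those late genes encode the coat proteins of the lipid droplet, the carriers and enzymes that bring in fatty acids and build triglyceride, and secreted adipokines such as adiponectin and adipsin.

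Of 24013 genes in the count table, 13339 had enough reads to be tested. At day 1, 542 of them (4.06%) differed between P and C cells, 244 higher in P cells (1.83%) and 298 lower (2.23%). Called here means a Benjamini-Hochberg adjusted p-value under 0.1 in edgeR's quasi-likelihood test together with a ratio over 2 or under 0.5. Large changes were more frequent among the higher genes. The ratio was over 4-fold for 109 of the higher and 86 of the lower genes, and over 8-fold for 57 and 23. A mean under 50 counts over the day 1 libraries was found in 65 of the higher and 41 of the lower genes. The size of a ratio fitted from so few counts is uncertain. All 542 called genes had P replicas that did not overlap the C replicas, as did 60.5% of all genes tested.

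The 4 libraries held between 20428816 and 25975739 counts, at which 3 counts of a gene correspond to 0.118 to 0.140 CPM (counts scaled to a common library size by TMM). The log2 difference between replicas was taken over the 5600 genes with a mean log2 CPM above 5 across all 8 libraries. At day 1 its SD was 0.261 in C cells and 0.121 in P cells. For day −2 it was 0.137 for C and 0.795 for P. These spreads enter the count of calls, because the model takes the spread from all 8 libraries. With the 4 day 1 libraries alone, 899 genes were called, 428 higher and 471 lower. Leaving out replica 1 or 2 of P cells at day 1 left 70 and 63 called genes, and leaving out replica 1 or 2 of C cells at day 1 left 165 and 137. Without either replica of C cells at day −2 there were 310, and without replica 1 or 2 of P cells at day −2 there were 994 and 992. Of 99 called genes picked by the rule for naming genes, 39 stayed called with each of the 8 libraries left out in turn, and 60 lost the call without at least 1 day 1 library, 16 of them also without a C replica of day −2. None of the 99 changed direction.

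**Figure D1:**
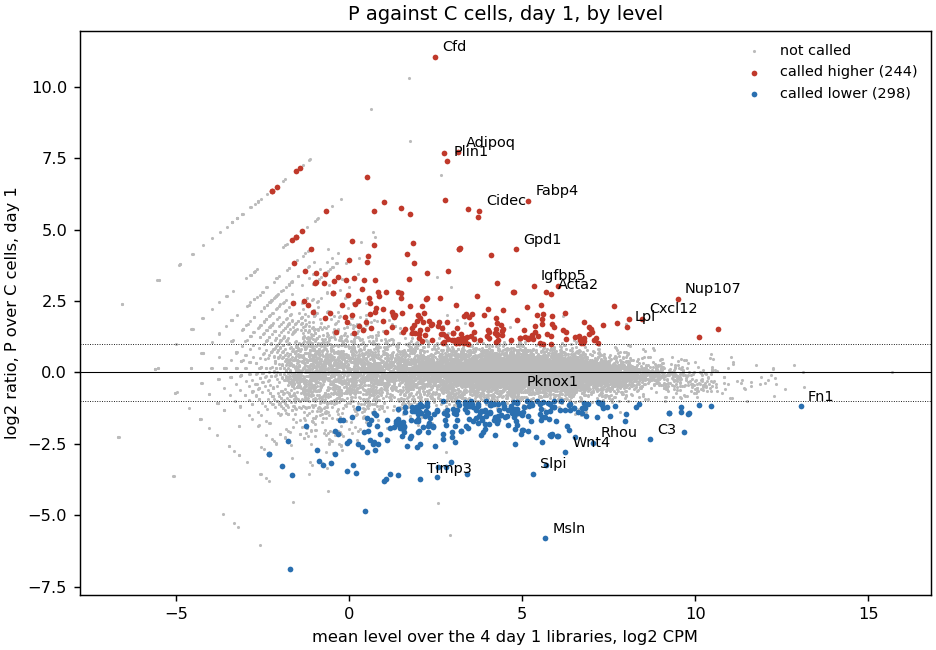
The log2 ratio of P over C cells at day 1 (vertical axis, as fitted) against the mean level over the 4 libraries (horizontal axis, log2 CPM), 1 point per tested gene. Red and blue points are the 244 genes called higher and the 298 called lower, dotted lines mark a ratio of 2 and of 0.5, and the red points reach farther from 0 than the blue ones.

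Pknox1 itself was at 38.1 and 36.5 CPM in C cells and at 23.6 and 23.8 CPM in P cells. Both P replicas lay below both C replicas, by a log2 ratio of −0.65 ± 0.14 (SE, n = 2 against 2, adjusted p = 0.0575). At day −2 the log2 ratio was −0.62, so the RNA of the targeted gene was lower by nearly the same amount on both days, and on neither day by the 2-fold that the call asked for. Its adjusted p lay above 0.1 with library totals in place of TMM (0.151) and without the filter on low counts (0.141). It was 0.179 without either C replica of day −2, 0.301 and 0.306 without replica 1 or 2 of C cells at day 1, and 0.446 and 0.393 without those of P cells. It was 5.03e-04 by DESeq2, 0.00622 with the 4 day 1 libraries alone, and 0.00149 and 0.00172 without replica 1 or 2 of P cells at day −2. None of the 13 TALE genes tested was called at day 1 by edgeR or by DESeq2, with 1 above and 2 below 0 at an unadjusted p under 0.05. Of all genes tested, 7.45% lay above and 8.79% below 0 at that unadjusted p. Among the Pbx partners of Prep1, log2 ratios were 0.09 ± 0.13 (Pbx2), 0.08 ± 0.29 (Pbx3) and 0.69 ± 0.78 (Pbx4, below 1 CPM). The related Meis1, Meis2, Meis3 and Pknox2 were at −0.39 ± 0.41, −0.30 ± 0.14, 0.64 ± 0.20 and 0.08 ± 0.19.

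The libraries carried the RNA of fibroblast-like cells. Of 14 markers of preadipocytes and fibroblasts, 13 were above 1 CPM, and Cd34 was below it in all 4 libraries. All 8 epithelial and all 7 endothelial markers were below 1 CPM in every library, as were 9 of 10 markers of muscle, bone and cartilage (all but Runx2) and 5 of 8 of macrophages and leukocytes, with Cd52 at 0. The summed level of the fibroblast markers was 32881 and 38633 CPM in C cells and 23720 and 23654 CPM in P cells, and the largest single part of that gap was fibronectin, Fn1. Whether this shift has a part in the differences below was not tested.

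Genes of the mature fat cell were among the largest differences of the comparison. Cfd, which encodes adipsin, had no counts in either C replica and 10.3 and 11.9 CPM in the P replicas, at least 186-fold higher against a floor of 3 counts over the group (adjusted p = 0.00374). Adipoq, which encodes adiponectin, had 3 and 1 counts in C cells and 453 and 345 counts in P cells, a ratio of 225 with a 95% counting interval of 87.4 to 826 (adjusted p = 8.55e-04). In these bulk libraries a larger share of fat cells and more RNA per cell cannot be told apart.

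The lipid droplet list covers the coat of the droplet and the lipases that act on it. Of its 13 tested members, 4 rose and none fell (30.8%, beside 4.06% of all genes). The median log2 ratio was 0.82 against 0.01 over all genes. Plin1, the perilipin that guards the droplet surface, had 0.118 and 0.0398 CPM in C cells and 15.5 and 12.7 CPM in P cells, a ratio of 178 (69.2 to 656, adjusted p = 0.00505). Cidec, which lets droplets fuse and grow, was at 0.592 and 0.438 CPM in C cells and at 26.8 and 26.0 CPM in P cells, a log2 ratio of 5.66 ± 0.26 (adjusted p = 8.55e-04). G0s2, the inhibitor of adipose triglyceride lipase, was at 0.118 and 0.0796 CPM against 5.30 and 5.88 CPM, a ratio of 56.3 (23.8 to 175, adjusted p = 0.00521). The lipase that it inhibits, Pnpla2, also rose, from 17.8 and 19.4 CPM to 43.9 and 42.7 CPM, by 1.22 ± 0.21 on the log2 scale (adjusted p = 0.0285). For Plin1, Cidec and G0s2 the call held with each library left out, and for Pnpla2 it was lost without any 1 of the 4 day 1 libraries (adjusted p up to 0.244). Between 3 and 4 members of the list were called in those fits.

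Of 20 tested genes for fatty acid uptake and triglyceride assembly, 7 rose and none fell (35%, beside 4.06% of all genes). Their median log2 ratio was 0.62. Fabp4, the abundant fatty acid carrier of fat cells, had 0.789 and 1.39 CPM in C cells and 67.4 and 74.3 CPM in P cells, a log2 ratio of 6.01 ± 0.34 (adjusted p = 9.20e-04). The related carrier Fabp5 stood at 15.6 and 15.1 CPM against 79.9 and 78.1 CPM (2.37 ± 0.15, adjusted p = 0.00113). Cd36, the fatty acid transporter of the membrane, was at 0.237 and 0.159 CPM in C cells and at 14.2 and 12.6 CPM in P cells, a ratio of 67.7 (36.5 to 142). Gpd1, which makes the glycerol phosphate that carries the fatty acids, had 73 and 64 counts in C cells and 1170 and 1256 counts in P cells (4.32 ± 0.24, adjusted p = 8.55e-04). In each of these genes the P replicas were close to each other and far above both C replicas.

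Lpl, the lipoprotein lipase that frees fatty acids for uptake, was already well above the floor in C cells, at 127 and 133 CPM, and reached 417 and 375 CPM in P cells (1.60 ± 0.14, adjusted p = 0.00339). Acsl1, which activates fatty acids with coenzyme A, was at 21.0 and 19.7 CPM against 63.2 and 61.9 CPM (1.62 ± 0.17, adjusted p = 0.00605). Pck1, the PEP carboxykinase of glyceroneogenesis, had no counts in C cells and 0.598 and 0.887 CPM in P cells, at least 12.4-fold higher (adjusted p = 0.0743). The calls of Fabp4, Fabp5, Gpd1 and Lpl held with each library left out. Those of Cd36, Acsl1 and Pck1 did not hold without at least 3 of the 4 day 1 libraries in turn (adjusted p up to 0.152, 0.108 and 0.377). The list kept 5 and 4 calls without replica 1 or 2 of C cells at day 1, and 4 without either replica of P cells.

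**Figure D2:**
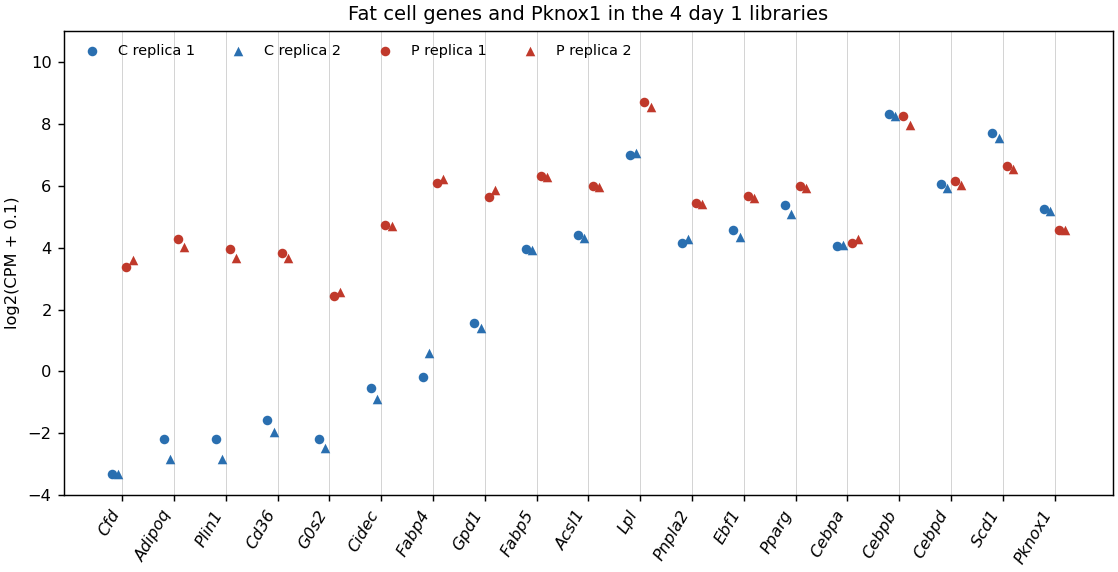
Levels of fat cell genes, of 4 C/EBP and PPAR factors, of Scd1 and of Pknox1 in the 4 day 1 libraries (vertical axis, log2(CPM + 0.1)), with C replicas in blue and P replicas in red. From Cfd to Ebf1 the P replicas lie above the C replicas, Cebpa, Cebpb and Cebpd lie close together in both kinds of cell, and Scd1 and Pknox1 lie lower in P cells.

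The genes that make fatty acids did not share this pattern. Of 15 tested members of the de novo lipogenesis list, 1 rose and 1 fell (13.3%, beside 4.06% of all genes). Their median log2 ratio was 0.00. Thrsp, a lipogenic nuclear protein of fat and liver, had 0.0789 and 0.0796 CPM in C cells and 2.09 and 1.96 CPM in P cells, a ratio of 25.6 (9.67 to 96.0, adjusted p = 0.0283). Scd1, the desaturase that puts the double bond into stearic acid, fell from 208 and 187 CPM to 98.8 and 93.6 CPM (−1.04 ± 0.16, adjusted p = 0.0194). Both calls were lost without any 1 of the day 1 libraries (adjusted p up to 0.271 and 0.238). Srebf1, a main activator of lipogenic genes, was at 102 and 124 CPM against 90.2 and 97.4 CPM (−0.27 ± 0.27, adjusted p = 0.749), with both P replicas below both C replicas. None of 23 tested genes of cholesterol synthesis was called by edgeR or by DESeq2, with 1 above and 2 below 0 at an unadjusted p under 0.05.

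Among the transcription factors of the program, Pparg was at 41.2 and 34.2 CPM in C cells and at 63.5 and 60.5 CPM in P cells, a log2 ratio of 0.72 ± 0.26 that did not pass the test (adjusted p = 0.228), although the groups did not overlap. Cebpa was at 16.4 and 16.9 CPM against 17.5 and 19.1 CPM (0.14 ± 0.34). Cebpb was at 317 and 307 CPM against 306 and 253 CPM (−0.16 ± 0.23), and Cebpd at 66.5 and 61.2 CPM against 71.4 and 65.7 CPM (0.10 ± 0.31). The adjusted p-values of these 3 C/EBP genes were 0.924, 0.845 and 0.940.

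Among the 19 tested adipogenic transcription factors, 2 rose and 1 fell (15.8%, beside 4.06% of all genes). Their median log2 ratio was −0.13. Ebf1, an activator of preadipocyte differentiation, rose from 23.6 and 20.4 CPM to 51.1 and 48.4 CPM (1.18 ± 0.22, adjusted p = 0.0376). Its relative Ebf2, known from brown fat precursors, fell from 10.9 and 9.52 CPM to 3.97 and 4.20 CPM (−1.32 ± 0.30, adjusted p = 0.0689). Ppargc1b, the PPARγ coactivator 1β, rose from 0.276 and 0.0796 CPM to 1.37 and 1.17 CPM, a ratio of 7.13 (3.50 to 16.4). The calls of Ebf1 and Ebf2 were lost without any 1 of the day 1 libraries, and that of Ppargc1b without 3 of the 4 (adjusted p up to 0.324, 0.444 and 0.289). The early factors Klf4, Klf5 and Egr2 had log2 ratios of −0.44 ± 0.26, 0.35 ± 0.19 and −0.86 ± 0.31 and were not called. Of 16 tested genes listed as holding preadipocytes back, 1 rose (Sfrp2, adjusted p = 0.0835) and none fell. That is 6.25% beside 4.06% of all genes. Sfrp2 encodes a secreted protein that binds Wnts, and its effect on these preadipocytes was not tested. Dlk1, the preadipocyte marker, was at 1907 and 1899 CPM in C cells and 2483 and 2411 CPM in P cells (0.36 ± 0.18, adjusted p = 0.395).

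The insulin and IGF genes moved in both directions. Of 19 tested members, 2 rose and 4 fell (31.6%, beside 4.06% of all genes), with a median log2 ratio of −0.50. Slc2a4, the insulin-responsive glucose transporter GLUT4, had no counts in C cells and 0.598 and 0.794 CPM in P cells, at least 11.6-fold higher (adjusted p = 0.0462). Igfbp5, a binding protein of the insulin-like growth factors, was at 8.33 and 9.12 CPM in C cells and 72.6 and 70.9 CPM in P cells (3.04 ± 0.29, adjusted p = 0.00446). Igfbp3, the main carrier of these factors in serum, went the other way, from 22.2 and 23.5 CPM to 5.38 and 4.62 CPM (−2.19 ± 0.26, adjusted p = 0.00832). Pdk1 was counted in this list but encodes a kinase that shuts pyruvate dehydrogenase, not a signalling protein of insulin or IGF. It fell from 98.7 and 95.6 CPM to 30.7 and 28.9 CPM (−1.70 ± 0.18, adjusted p = 0.00641). The call of Igfbp5 held with each library left out, those of Igfbp3 and Pdk1 were lost without either P replica (adjusted p up to 0.140 and 0.122), and that of Slc2a4 was lost without any 1 of the day 1 libraries (0.278).

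The adipokine list had calls on both sides, with 2 of 7 tested members higher (Cfd and Adipoq) and 2 lower. This is 57.1% of a short list, beside 4.06% of all genes. Apln, which encodes apelin, fell from 12.9 and 13.3 CPM to 3.08 and 2.38 CPM (−2.26 ± 0.32, adjusted p = 0.0156). Metrnl, a secreted factor of fat and muscle, fell from 28.7 and 28.7 CPM to 10.98 and 12.2 CPM (−1.31 ± 0.16, adjusted p = 0.00935). Both calls were lost without either P replica of day 1, and that of Apln also without replica 2 of C cells at day 1. The VPS10 receptors, which sort proteins between membranes, also split. Sorcs1 rose from 27.7 and 32.3 CPM to 87.2 and 94.6 CPM (1.60 ± 0.16, adjusted p = 0.00477) and Sorcs2 fell from 15.98 and 20.5 CPM to 8.16 and 6.396 CPM (−1.32 ± 0.29, adjusted p = 0.0634), the latter not called without any 1 of the day 1 libraries (adjusted p up to 0.405).

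Interferon-stimulated genes were on the lower side in P cells. Of 38 interferon-stimulated genes, all of them tested, 9 fell and none rose (23.7%, beside 4.06% of all genes). A log2 ratio below 0 was found in 36 of the 38, with a median of −0.69 over the list. Interferon-stimulated genes are switched on by type I interferon and encode antiviral proteins, and the 9 were Mx1, Stat2, Oasl1, Oasl2, Oas1a, Oas2, Oas3, Rsad2 and Zbp1. Oas2, which makes the 2-5A signal that activates RNase L, was at 32.6 and 34.9 CPM in C cells and at 12.01 and 10.9 CPM in P cells (−1.56 ± 0.16, adjusted p = 0.00597). Oasl2, of the same family, fell from 66.9 and 76.3 CPM to 22.7 and 25.8 CPM (−1.56 ± 0.23), and Mx1, an antiviral GTPase, from 18.4 and 22.1 CPM to 5.13 and 6.86 CPM (−1.75 ± 0.26).

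Before induction the same list stood the other way round. At day −2, 29 of the 38 genes were called higher in P cells and none lower, with a median log2 ratio of 1.98, beside 6.98% of all genes called on that day. The change of the P to C difference between the days passed its own test (the interaction, adjusted p under 0.1) in 28 of the 38, all of them with a lower ratio at day 1, against 2.37% of all genes tested. Oas2 was at 0.279 and 0.266 CPM in C cells and at 4.15 and 4.35 CPM in P cells at day −2, so at day 1 both kinds of cell were higher and the order was turned (interaction −5.50 ± 0.28 on the log2 scale, adjusted p = 0.00289). The comparisons at day −2 and at day 1 share no library.

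The number of interferon-stimulated genes called lower at day 1 was 12 with the 4 day 1 libraries alone and 11 by DESeq2. It was 2 and 1 without replica 1 or 2 of C cells at day 1, and 0 without either replica of P cells at day 1 in edgeR's fit. With all libraries, 22 of the list lay below 0 and none above at an unadjusted p under 0.05. The interaction was called by DESeq2 in 34 of the 38. Without 1 library it was called by edgeR in 8 (replica 1 of P cells, day 1) to 35 (either replica of P cells, day −2) of them.

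**Figure D3:**
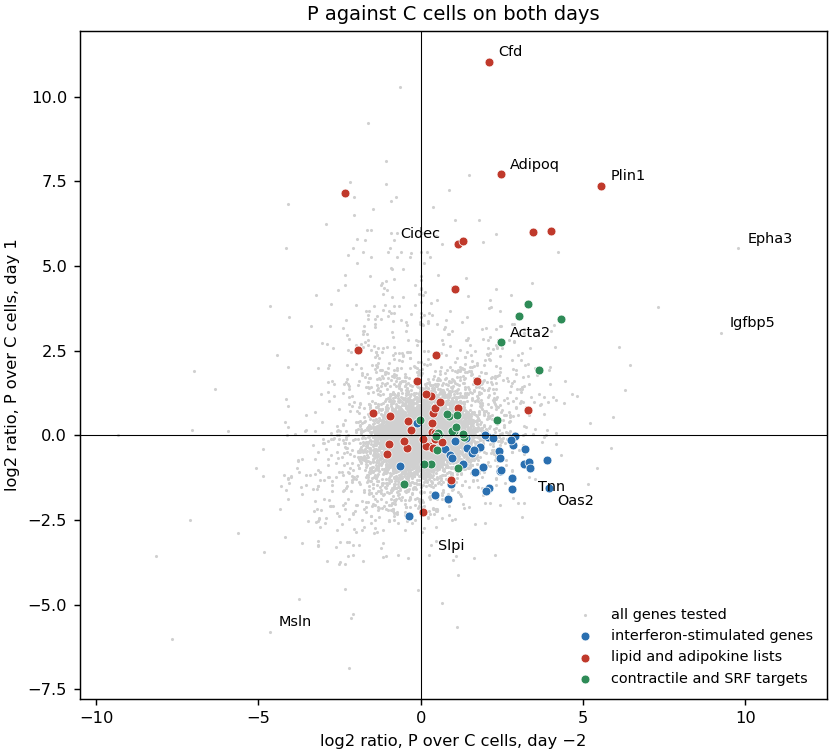
The log2 ratio of P over C cells at day −2 (horizontal axis) and at day 1 (vertical axis), 1 point per tested gene, with the interferon-stimulated genes in blue, the lipid droplet, fatty acid and adipokine lists in red and the contractile list in green. The blue points lie mostly to the right of 0 and below 0 (29 of 38 called higher at day −2, 9 called lower at day 1), and the highest red and green points lie above 0 on the vertical axis.

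Of 16 tested chemokines and cytokines, 4 fell and 1 rose (31.25%, beside 4.06% of all genes), with a median log2 ratio of −0.88. Cxcl12, the stromal chemokine that binds CXCR4, was the one that rose, from 151 and 151 CPM to 561 and 550 CPM (1.88 ± 0.13, adjusted p = 0.00131). Cx3cl1, which encodes fractalkine, fell from 62.1 and 70.0 CPM to 27.3 and 27.5 CPM (−1.27 ± 0.15, adjusted p = 0.00721), and Cxcl10, an interferon-induced chemokine, from 6.31 and 7.45 CPM to 1.84 and 1.82 CPM (−1.91 ± 0.28, adjusted p = 0.0166). Ccl5, a chemokine for T cells, fell from 27.9 and 19.7 CPM to 6.28 and 7.52 CPM (−1.79 ± 0.33, adjusted p = 0.0368). Only the call of Cxcl12 among these 4 held with each library left out (adjusted p of the others up to 0.142, 0.194 and 0.341).

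In the complement list, 2 of 16 tested members were called, 1 in each direction, and the median log2 ratio was −0.49. C3, the central complement protein, was at 635 and 753 CPM in C cells and at 141 and 134 CPM in P cells (−2.33 ± 0.16, adjusted p = 0.00131), a call that held with each library left out. Cd14, the lipopolysaccharide co-receptor, fell from 11.05 and 9.79 CPM to 3.72 and 3.69 CPM (−1.49 ± 0.21, adjusted p = 0.0157). Its call was lost without either P replica of day 1 and without replica 1 of C cells at day 1. None of 15 tested genes of MHC class I presentation was called by edgeR or DESeq2, with none above and 2 below 0 at an unadjusted p under 0.05.

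Some genes for contractile proteins were higher in P cells. Of 23 tested contractile genes and targets of SRF (serum response factor), 5 rose and none fell (21.7%, beside 4.06% of all genes). Their median log2 ratio was 0.14. Acta2, smooth muscle α-actin, was at 14.9 and 14.5 CPM in C cells and at 99.4 and 98.0 CPM in P cells (2.75 ± 0.17, adjusted p = 0.00113). Myl9, the regulatory light chain of myosin, was at 0.908 and 1.39 CPM against 14.6 and 12.2 CPM (3.54 ± 0.32, adjusted p = 0.00407), and Tagln, which encodes the actin-binding protein transgelin, at 0.237 and 0.119 CPM against 2.26 and 3.13 CPM (a ratio of 15.01, 7.65 to 33.6, adjusted p = 0.00419).

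In all 3 genes, every day 1 library lay below every day −2 library. At day −2 Acta2 was at 439 and 404 CPM in C cells and at 2050 and 2599 CPM in P cells, a log2 ratio of 2.46 ± 0.17, and its interaction was 0.28 ± 0.23 (adjusted p = 0.512). The calls of Acta2, Myl9 and Tagln held with each library left out, whereas Actg2, the enteric smooth muscle actin (1.95 ± 0.28), was not called without either P replica or without replica 2 of C cells (adjusted p up to 0.156). Tagln overlaps the gene Pcsk7, and the use of strand in the counting is not given in the sources used here.

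Matrix genes moved in both directions. Of 34 tested elastic fibre and matrix glycoprotein genes, 2 rose and 4 fell (17.6%, beside 4.06% of all genes). Fn1, fibronectin, was at 11523 and 11998 CPM in C cells and at 5228 and 5215 CPM in P cells (−1.17 ± 0.14, adjusted p = 0.00923). Spon2, a spondin of the matrix, fell from 89.8 and 97.7 CPM to 9.70 and 10.4 CPM (−3.22 ± 0.34, adjusted p = 0.00569). Tnn, tenascin N, fell from 17.1 and 16.2 CPM to 6.67 and 7.56 CPM (−1.22 ± 0.18, adjusted p = 0.0167), after it had been higher in P cells at day −2 by 3.32 ± 0.20 (interaction −4.55 ± 0.26, adjusted p = 0.00289). These 3 calls were lost without either P replica of day 1, and that of Tnn also without either C replica of day 1.

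Of 37 tested collagen chains, 2 rose and 1 fell at day 1, which is 8.11% of the chains beside 4.06% of all genes. Col15a1, a collagen of basement membrane zones, rose from 5.604 and 6.13 CPM to 24.6 and 23.02 CPM (2.02 ± 0.33, adjusted p = 0.0238), and Col8a1, a short-chain collagen, from 0.513 and 0.876 CPM to 3.50 and 3.03 CPM (2.23 ± 0.45). Col23a1, a transmembrane collagen, fell from 45.8 and 58.8 CPM to 12.4 and 13.8 CPM (−2.00 ± 0.35, adjusted p = 0.0320), while at day −2 it had been higher in P cells by 3.01 ± 0.42. At day −2, 12 chains had been called higher and 1 lower, beside 4.83% and 2.15% of all genes on that day. The 3 calls at day 1 were lost without any 1 of the day 1 libraries (adjusted p up to 0.198, 0.288 and 0.295).

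Of 30 tested proteases and inhibitors of the matrix, 5 rose and 4 fell (30%, beside 4.06% of all genes). Timp3, an inhibitor of metalloproteinases that is bound to the matrix, was at 7.85 and 7.56 CPM in C cells and at 0.598 and 0.560 CPM in P cells (−3.72 ± 0.20, adjusted p = 8.55e-04). Adamts5, an aggrecan-cleaving protease that Timp3 inhibits, rose from 27.5 and 28.1 CPM to 89.6 and 89.2 CPM (1.69 ± 0.15, adjusted p = 0.00373). Both calls held with each library left out. Timp3 lies inside an intron of another gene, Syn3, whose reads may be counted with it. Reck, a membrane-anchored inhibitor of metalloproteinases, rose by 1.13 ± 0.16, and Mmp28, an epidermal metalloproteinase, fell by 1.69 on the log2 scale. These 2 calls were lost without either P replica of day 1. That of Reck was also lost without either C replica of day 1, and that of Mmp28 without replica 2 of C cells.

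Of 31 tested integrin and laminin subunits, 1 rose and 3 fell (12.9%, beside 4.06% of all genes). Itga3, the α3 integrin that binds laminin, was at 11.5 and 10.3 CPM in C cells and at 0.812 and 1.40 CPM in P cells (−3.30 ± 0.28, adjusted p = 0.00311), which held with each library left out. Lama5, the α5 chain of laminin, fell from 50.9 and 66.0 CPM to 14.2 and 14.1 CPM (−2.04 ± 0.27, adjusted p = 0.0126), and Itgb7, a β integrin of leukocytes, from 9.75 and 9.44 CPM to 1.84 and 1.40 CPM (−2.56 ± 0.37, adjusted p = 0.0165). Itga1, the α1 integrin that binds collagen, rose from 1.93 and 2.23 CPM to 5.94 and 4.81 CPM (1.37 ± 0.32, adjusted p = 0.0764), and it overlaps the gene Pelo. These latter 3 were not called without either P replica of day 1. The call of Lama5 was also lost without replica 2 of C cells at day 1, and that of Itgb7 without either C replica of day 1. That of Itga1 was also lost without either C replica of day 1 or of day −2.

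Of 30 tested Wnt pathway genes, 6 rose and 3 fell (30%, beside 4.06% of all genes). Wnt4, a Wnt ligand, showed the clearest fall, from 133 and 131 CPM to 18.9 and 19.6 CPM (−2.78 ± 0.21, adjusted p = 0.00187). Among the receptors, Fzd4 rose from 20.7 and 24.4 CPM to 75.9 and 69.5 CPM (1.69 ± 0.20, adjusted p = 0.00788) and Lgr4, a receptor for R-spondins, from 73.5 and 64.2 CPM to 176 and 176 CPM (1.35 ± 0.15, adjusted p = 0.00704). The R-spondin gene Rspo2 rose from 0.276 and 0.239 CPM to 1.71 and 1.68 CPM (2.69 ± 0.48, adjusted p = 0.0321), and Sfrp2, a secreted protein that binds Wnts, from 6.04 and 7.45 CPM to 16.9 and 15.7 CPM (1.27 ± 0.31, adjusted p = 0.0835). The call of Wnt4 held with each library left out, and the others were lost without either P replica of day 1. That of Fzd4 was also lost without replica 1 of C cells at day 1, and that of Lgr4 without replica 2. Those of Rspo2 and Sfrp2 were also lost without either C replica of day 1 or of day −2.

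In the TGFβ and BMP list, 4 of 40 tested members rose and 2 fell (15%, beside 4.06% of all genes). Grem1, a secreted BMP antagonist, fell from 41.0 and 40.2 CPM to 13.6 and 13.8 CPM (−1.57 ± 0.15, adjusted p = 0.00478). Smad9, a BMP-pathway Smad, rose from 1.03 and 0.717 CPM to 4.32 and 3.31 CPM (2.12 ± 0.36), and Bmp1, which is not a BMP but a protease that processes procollagen, fell from 401 and 475 CPM to 189 and 193 CPM (−1.20 ± 0.19). The calls of Grem1, Smad9 and Bmp1 were lost without either P replica of day 1. That of Smad9 was also lost without either C replica of day 1, and that of Bmp1 without replica 2 of C cells.

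Of 44 tested semaphorins, plexins, ephrins and Eph receptors, 5 rose and 2 fell (15.9%, beside 4.06% of all genes). The Eph receptor Epha3 was at 0.197 and 0.0796 CPM in C cells and at 6.62 and 6.68 CPM in P cells, a ratio of 47.9 (22.97 to 120, adjusted p = 0.0115), and Epha7 at 0.158 and 0.159 CPM against 2.65 and 2.89 CPM, a ratio of 17.4 (8.59 to 41.3, adjusted p = 0.00691). Sema6a, a membrane semaphorin, rose by 1.35 ± 0.18 and Sema3f, a secreted one, fell by 1.18 on the log2 scale. These 4 calls were lost without either P replica of day 1. Those of Epha3, Sema6a and Sema3f were also lost without either C replica of day 1, and that of Epha7 without replica 2 of C cells.

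Of 20 tested glucocorticoid response genes, 1 fell and none rose (5%, beside 4.06% of all genes), the median log2 ratio was −0.15, and 1 lay above and 6 below 0 at an unadjusted p under 0.05. None of 21 tested cAMP response genes was called by edgeR or DESeq2, with a median of −0.23, and at an unadjusted p under 0.05 there were 1 above and 4 below 0. Of 52 tested cell cycle genes, 2 rose and 2 fell (7.69%, beside 4.06% of all genes). Cenpf, a kinetochore protein, rose by 1.21 ± 0.15 and Rrm2, a subunit of ribonucleotide reductase, by 1.03 ± 0.17, whereas Ccnd3, cyclin D3, fell by 1.51 and E2f2, a transcription factor of the G1/S transition, by 1.62 on the log2 scale. The calls of these 4 were lost without any 1 of the day 1 libraries (adjusted p up to 0.148, 0.252, 0.441 and 0.242). None of 22 tested p53 targets was called by edgeR or DESeq2, with 4 above and none below 0 at an unadjusted p under 0.05, and 1 was called higher with the 4 day 1 libraries alone and without either P replica of day −2. Of 23 tested Hox genes 1 rose, Hoxb9, which is 4.35% beside 4.06% of all genes. Hoxb9 was at 0.197 and 0.159 CPM in C cells and at 1.07 and 1.45 CPM in P cells (a ratio of 7.005, 3.44 to 16.1). Its call was lost without any 1 of the day 1 libraries.

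**Figure D4:**
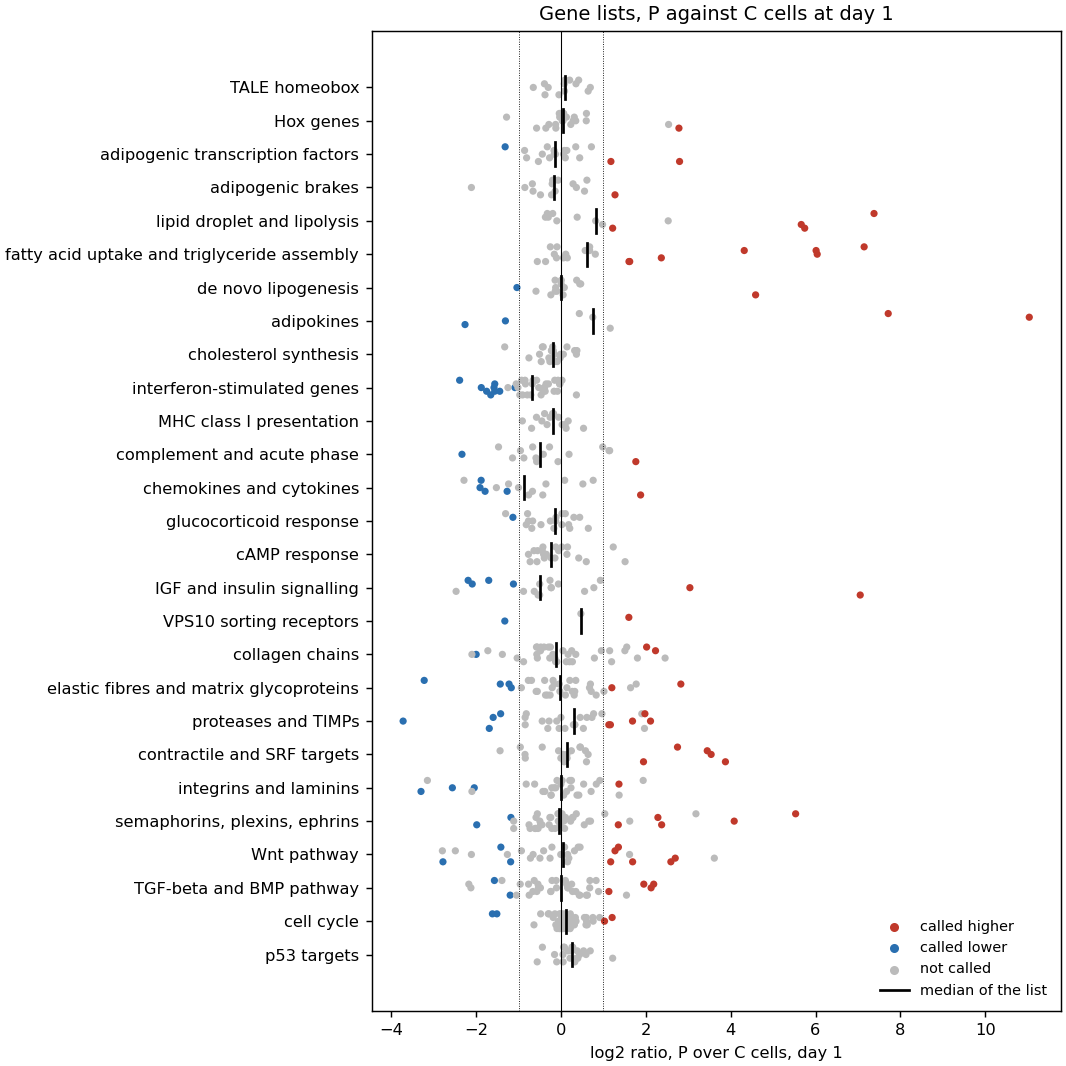
The log2 ratio of P over C cells at day 1 (horizontal axis) of each tested member of the gene lists (vertical axis), with called genes in red or blue, the others in grey and the median of each list as a black bar. The lipid droplet and fatty acid lists have red points and no blue ones, the interferon-stimulated genes have blue points and no red ones, and the TALE, cholesterol, MHC class I, cAMP and p53 lists have neither.

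Further genes were among the strongest differences. Rhou, a Cdc42-like GTPase, was at 227 and 223 CPM in C cells and at 40.3 and 41.9 CPM in P cells (−2.45 ± 0.13, adjusted p = 8.55e-04), and its log2 ratio at day −2 was −2.19 ± 0.13. Msln, which encodes the surface protein mesothelin, was at 93.7 and 107 CPM in C cells and at 2.09 and 1.49 CPM in P cells (−5.80 ± 0.50, adjusted p = 0.00343). Slpi, an inhibitor of leukocyte elastase, was at 77.4 and 68.0 CPM against 6.67 and 5.79 CPM (−3.54 ± 0.24, adjusted p = 0.00122). The miRNA gene Mir7678 lies within Slpi and fell with it (−3.67 ± 0.51), so their reads cannot be told apart. St6gal1, a sialyltransferase, fell from 14.6 and 13.3 CPM to 1.496 and 1.63 CPM (−3.15 ± 0.19, adjusted p = 0.00108). Il18rap, a chain of the interleukin-18 receptor, fell from 4.06 and 3.74 CPM to 0.299 and 0.280 CPM (−3.73 ± 0.31), and Cda, cytidine deaminase, from 4.34 and 3.15 CPM to 0.299 and 0.233 CPM (−3.78 ± 0.48). The calls of Rhou, Msln, Slpi, St6gal1 and Il18rap held with each library left out. Those of Cda and Mir7678 were lost without either P replica of day 1, and that of Mir7678 also without replica 1 of C cells at day 1.

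The Ugt1a genes, whose products attach glucuronic acid to bilirubin, hormones and drugs, gave 8 called names on chromosome 1 with nearly the same value, from −2.16 to −2.23 on the log2 scale. Ugt1a1 was at 87.8 and 97.9 CPM in C cells and at 20.4 and 20.2 CPM in P cells (−2.19 ± 0.14, adjusted p = 0.00113). The Ugt1a genes are made from alternative first exons joined to shared last exons, and within a library the counts of Ugt1a6a were 1.02 to 1.06 times those of Ugt1a1. The names therefore share nearly all their reads and were read as 1 locus with 1 difference, whose calls held with each library left out.

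Sis, which encodes sucrase-isomaltase of the intestine, had 0.0789 and 0.0398 CPM in C cells and 13.8 and 12.9 CPM in P cells, a ratio of 226 (76.8 to 1097, adjusted p = 0.00524). Kcnt2, a sodium-activated potassium channel, was at 0.237 and 0.557 CPM against 19.8 and 22.6 CPM (5.72 ± 0.40, adjusted p = 0.00131), and the uncharacterized gene 4930550L24Rik at 0.552 and 0.637 CPM against 24.7 and 27.1 CPM (5.43 ± 0.22, adjusted p = 7.91e-04). All 3 calls held with each library left out. Tlr8, a receptor for single-stranded RNA, had no counts in C cells and 0.427 and 0.514 CPM in P cells, at least 7.88-fold higher, and 1600025M17Rik had 0.552 and 0.677 CPM in C cells and none in P cells, at least 9.18-fold lower. These low calls were lost without any 1 of the day 1 libraries (adjusted p up to 0.361 and 0.331).

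Nup107, a nuclear pore subunit, and Yeats4, a reader of acetylated histones, were abundant genes with high ratios. Nup107 was at 200 and 214 CPM in C cells and at 1259 and 1207 CPM in P cells (2.58 ± 0.14, adjusted p = 8.55e-04). Yeats4 was at 68.5 and 66.4 CPM against 353 and 319 CPM (2.32 ± 0.15, adjusted p = 0.00118), and both calls held with each library left out. The 2 genes lie near each other on chromosome 10, and their neighbours were examined after these values were seen. Of 23 tested genes around them, 7 had a call for a higher level in P cells at day 1 and none for a lower one, beside 1.83% of all genes called higher. The 7 included Cct2 (1.25 ± 0.14), Frs2 (1.60 ± 0.22), Cpsf6 (1.86 ± 0.19), Cpm (2.34 ± 0.60) and Mdm1 (2.07 ± 0.32). Mdm2 (−0.10 ± 0.16) and Slc35e3 (0.18 ± 0.15), which lie between Cpm and Nup107, were not called. At day −2, 8 of the 23 were called higher, 6 of them also at day 1, beside 4.83% of all genes called higher at day −2.

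**Figure D5:**
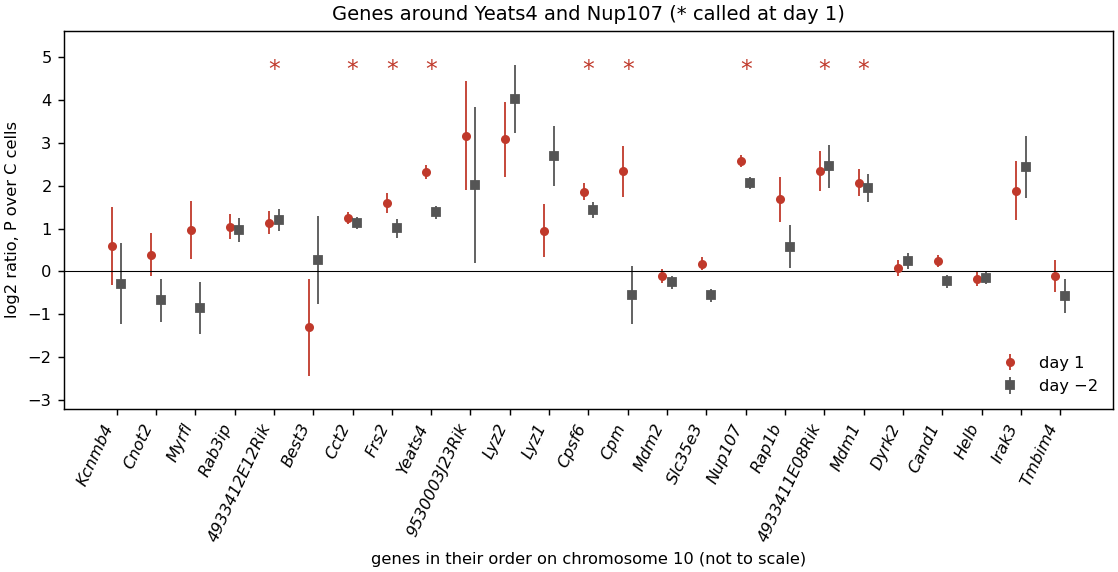
The log2 ratio of P over C cells (vertical axis, with its SE) at day 1 (red circles) and day −2 (grey squares) for 25 genes in their order on chromosome 10 (horizontal axis). A red star marks the 9 genes called at day 1, and Mdm2 and Slc35e3 lie near 0 at day 1 between called neighbours.

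Set beside the difference before induction, which rests on other libraries, part of the day 1 difference was already there. Of the 244 genes higher at day 1, 128 (52.5%) were also called higher at day −2, where they made up 19.9% of 644 higher genes, and 3 were called lower. Of the 298 genes lower at day 1, 75 (25.2%) were also called lower at day −2, 26.1% of 287 lower genes, and 15 were called higher. Of all genes tested, 4.83% were called higher and 2.15% lower at day −2. When each day was fitted with its own 4 libraries, 25 of 428 higher and 14 of 471 lower genes of day 1 were called the same way at day −2. DESeq2 gave 143 of 318 higher and 98 of 403 lower. Without replica 1 or 2 of C cells at day −2 there were 47 and 46 of 145 higher genes, and 21 and 23 of 165 lower genes. Without 1 of the other 6 libraries, 35.7% to 71.4% of the higher and 27.3% to 40.0% of the lower genes were called the same way on both days. The P to C difference itself changed between the days (interaction) in 31 of the 244 higher and 82 of the 298 lower genes, beside 2.37% of all genes tested. These genes were chosen by their day 1 ratio, which is part of the interaction. A share above that of all genes therefore follows partly from the choice and cannot be read as a result about them.

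In fat cell genes the interaction was called in 5 of the 20 fatty acid genes and 1 of the 13 lipid droplet genes. All of these had a higher P to C ratio at day 1 than at day −2. Below, a difference is termed wider where the ratio was higher at day 1 and narrower where it was lower, whatever its size. By DESeq2 it was wider in 7 and 3 genes of these lists and narrower in 1 of each. Without 1 replica of C cells at day −2, or 1 of either kind of cell at day 1, it was wider in 0 to 3 of the fatty acid genes and 0 to 1 of the lipid droplet genes, and narrower in none. Without replica 1 or 2 of P cells at day −2 it was wider in 8 and 11 of the fatty acid genes and in 3 of the lipid droplet genes, and narrower in 1 and 6 and in 2 of them. Gpd1 had a log2 ratio of 1.06 ± 0.25 at day −2 and 4.32 at day 1 (interaction 3.26 ± 0.34, adjusted p = 0.0110), Cidec 1.16 ± 0.37 and 5.66 (4.51 ± 0.50, adjusted p = 0.0130), and Fabp4 3.44 ± 0.30 and 6.01 (2.57 ± 0.42, adjusted p = 0.0462). Fabp5 (0.47 at day −2) and Acsl1 (−0.11 at day −2) widened by 1.89 ± 0.20 and 1.73 ± 0.24. Lpl differed by nearly the same amount on both days, 1.72 ± 0.14 at day −2 and 1.60 at day 1 (interaction −0.12 ± 0.19, adjusted p = 0.723). The C/EBP genes went the other way. Cebpa had been higher in P cells by 2.75 ± 0.41 and Cebpd by 2.63 ± 0.34 at day −2. The difference was smaller at day 1 (interaction −2.61 ± 0.52 and −2.53 ± 0.45, adjusted p = 0.0836 and 0.0617). The P replicas of day −2 lay apart, at 7.51 and 3.39 CPM for Cebpa and 64.5 and 32.9 CPM for Cebpd. With the replica number as a block, none of the adipogenic transcription factors had a called interaction. DESeq2 called it in 6 of them with a lower ratio at day 1 and in 1 with a higher ratio. Over all genes, the interaction was called in 316. Leaving out replica 1 or 2 gave 38 and 47 for C cells at day −2, 1484 and 8395 for P cells at day −2, 69 and 66 for C cells at day 1, and 32 and 33 for P cells at day 1.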

How the data were processed

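Total RNA from 8 cultures was sequenced on the Ion Torrent system, 2 biological replicas for each of C and P cells at day −2 and day 1. The authors used the FASTX-Toolkit to clean the reads, TopHat2 2.0.9 for alignment to mm9, and R packages (GenomicAlignments and its relatives) for counting on the UCSC refGene annotation. They deposited raw read counts of 24013 genes, with no normalization. The use of strand and the treatment of reads from several genes or places are not given in the sources used here, so genes that overlap another (among those named, Timp3, Tagln, Fzd4, Itga1, Ccnd3, Mmp28, Slpi and the Ugt1a genes) are uncertain to that extent. The study's own calls were made with DESeq. Hmgcs1, Fitm1, Hoxc12 and Cd52 had 0 counts in all 8 libraries, and since Hmgcs1 is a gene that dividing cells use, a 0 here may come from the counting.

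Symbols came from a RefSeq gene list of GRCm38.p6, a later build, used for names and for which genes neighbour or overlap each other. It named 23929 genes and left 84 without a symbol. Promoter sequences were not used here.

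From the counts, edgeR 4.0.16 (R 4.3.3, limma 3.58.1) kept 13339 genes with filterByExpr, scaled the libraries by TMM and fitted its quasi-likelihood model, in which each condition has its own mean, to all 8 libraries, so that the 4 conditions share the estimate of the spread. P against C cells at day 1 is the main contrast, beside the same contrast at day −2 and their difference (the interaction). All tests are two-sided with Benjamini-Hochberg adjustment over all tested genes. A gene was called at an adjusted p under 0.1 and a ratio over 2 or under 0.5, the thresholds of the study, and an interaction at an adjusted p under 0.1. Errors of log2 ratios are SEs, taken as the absolute log2 ratio divided by the square root of the quasi-likelihood F statistic. They rest on the spread shared by all 8 libraries, not on the replicas of 1 comparison alone. For genes with at most 10 counts in a group, summed over its replicas, the ratio of summed counts is given with an exact 95% binomial interval, and for genes with none a bound from 3 counts over the group. Intervals and bounds cover counting error only. An exact permutation test of 2 against 2 cannot go below p = 0.333 and was not used.

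The genes named are the 12 called higher and 12 called lower with the lowest p and the 5 with the largest ratio in each direction (mean of at least 50 counts over the day 1 libraries). To these were added the called members of each list with the lowest p, called genes with 0 counts in both replicas of a group, the 5 lowest interaction p-values among called genes, and the TALE and fat cell genes followed by the study. The lists were written by hand, and the genes and lists were chosen with earlier results of these data known. The neighbours of Nup107 and Yeats4 and the other members of called lists fall outside this rule. Some genes that the rule picks are not reported here.

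The alternatives were DESeq2 1.42.0, its size factors or library totals, no filter or at least 10 counts in every library of the comparison, the 4 libraries of the comparison alone, a replica block, no ratio threshold, an adjusted p under 0.05, and fits without 1 library at a time.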

Additional observations from a re-analysis of the deposited data

Results flagged for a closer look

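The P to C difference at day 1 was tested against the same difference at day −2, which comes from other libraries, and the genes named here whose difference changed with an adjusted p under 0.1 (edgeR's quasi-likelihood test) are given with the change, day 1 minus day −2, on the log2 scale. In the fat cell genes the change was 5.24 for Adipoq, 9.10 for Slc2a4 (fitted from 0 counts in C cells at day 1), 2.57 for Fabp4, 4.51 for Cidec, 3.26 for Gpd1, 1.89 for Fabp5 and 1.73 for Acsl1. It was 6.21 for Sis, 3.81 for Kcnt2, 4.64 for Epha7 and 1.21 for Sema3f, the last of which was lower in P cells on both days. All of these had a P to C ratio that was larger at day 1 than before induction.

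The ratio was smaller at day 1 in the following genes. Among the antiviral genes and chemokines the change was −5.50 for Oas2, −3.66 for Oasl2, −2.20 for Mx1, −2.73 for Oasl1 and −1.94 for Cxcl10. Among transcription factors it was −2.61 for Cebpa, −2.53 for Cebpd and −2.44 for Egr2, none of them called with the replica block. Matrix genes and proteases had changes of −0.94 for Fn1, −4.55 for Tnn, −2.06 for Mmp28, −5.01 for Col23a1 and −1.94 for Timp3. Secreted proteins, receptors and enzymes had −6.21 for Igfbp5, −2.84 for Sorcs1, −2.24 for Metrnl, −1.34 for Grem1, −1.43 for Pdk1, −2.33 for Apln, −1.61 for C3, −1.62 for Wnt4 and −3.81 for Slpi, with −4.66 for Mir7678, which lies within Slpi.

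The overlapping Ugt1a genes counted as 1 locus with values of −2.56 (Ugt1a6a), −2.63 (Ugt1a6b), −2.68 (Ugt1a1), −2.69 (Ugt1a5), −2.68 (Ugt1a2), −2.69 (Ugt1a10), −2.70 (Ugt1a7c) and −2.72 (Ugt1a9). The groups of 2 replicas are too small for a test of outlying samples.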

How the results depend on the processing

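None of the 99 called genes picked by the rule for naming genes changed direction in any of the 18 alternatives, and 39 kept their call in all of them. The number of genes called at day 1 lay within 1.5 times of 542 with DESeq2, either other scaling, either other filter, the replica block and an adjusted p under 0.05. It was 899 (428 higher, 471 lower) with the 4 day 1 libraries alone, and 81 at day −2 with the 4 libraries of that day. Without a ratio threshold it was 820 (456 lower), and 1513 at day −2. The interaction was called in 930 genes by DESeq2, and at an adjusted p under 0.05 it was called in 174, with 602 genes called at day −2. Leaving out 1 library gave 63 to 994 genes called at day 1 (35 to 484 higher, 26 to 523 lower), 188 to 4380 at day −2 and 32 to 8395 interactions. Such fits have 1 sample in an arm, which is assumed to vary like the other conditions. The log2 ratio of Pknox1 was −0.55 (adjusted p = 0.151) with library totals and −0.67 (0.141) without a filter, −0.70 to −0.65 with a library left out, and at −0.65 (0.0575) it did not pass 0.05. Scaled by library totals, the median gene had a log2 ratio of 0.11 in place of 0.01. Apart from the sample numbers left in each fit, the cause of these shifts was not tested.

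The replica numbers come from the labels, and with 2 pairs they were not taken to pair the cultures. At day 1 the deviations of C and P replicas with the same number had a correlation of −0.15 over all genes. Over genes with a mean log2 CPM above 5 it was 0.14. With the number as a replicate block, 386 genes were called at day 1 (170 higher, 216 lower), 597 at day −2 and 117 interactions, and Pknox1 was at −0.65 (adjusted p = 0.148). A block with the day 1 numbers of P cells crossed, added after the data were seen, gave 428 genes at day 1, 148 interactions and −0.65 (0.142) for Pknox1.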
